A study of Homo sapiens with 6 samples.

Results

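The genes described here make up the protein folding and quality control machinery of the endoplasmic reticulum (ER) and the unfolded protein response, 35 genes taken by symbol from the 21151 genes of the deposited count table. All 35 are listed there, each once, and 34 passed the filter on low counts. The exception, DERL3, was counted 0, 0 and 10 times with shControl and 0 times in each knockdown library. Expression was measured by RNA sequencing in CCD-1064Sk cells, a human dermal fibroblast line grown in Iscove's medium with serum. The cells carried either a control short hairpin (shControl, labelled as wild type, 3 libraries) or short hairpins against the zinc-finger gene ZNF469 (shZNF469, labelled as ZNF469 knockdown, 3 libraries), and the series asks how ZNF469 bears on production of extracellular matrix. The series text calls the 3 libraries of a group technical replicates of 1 line. P-values therefore measure the spread between these libraries, which may be technical, and not that between cultures. How many hairpins were used, and their sequences, is not given in the sources used here.

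Secreted and membrane proteins, among them the collagens that dermal fibroblasts export in bulk, are folded in the lumen of the ER. The chaperone BiP (encoded by HSPA5) with its cochaperones, the lectins calnexin and calreticulin, and the disulfide isomerases help them fold, and proteins that fail are passed back to the cytosol and destroyed (ER-associated degradation). When unfolded proteins build up, the sensors IRE1 (ERN1), PERK (EIF2AK3) and ATF6 raise the output of chaperone and degradation genes, in part through XBP1, whose transcript IRE1 splices into its active form.

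Cleaved ATF6 is known to act through the ER stress response element, written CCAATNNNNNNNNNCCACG (ERSE), and through a shorter form, ATTGGNCCACG (ERSE-II), where N is any base. Both were searched on both strands, with no mismatch allowed, in RefSeq promoter windows of GRCh38.p14 that run from 250 bases before to 50 bases after each start. The 2 motifs were scored separately, although ERSE-II holds the CCACG of ERSE and, reversed, its CCAAT. Windows were found for 32 members, not for PDIA3, DERL1 and DERL3. An exact ERSE lay in the window of 8 of the 32 (25.0%) and an exact ERSE-II in 3 (9.38%), against 0.0916% and 0.0696% of all 27305 genes with a window (0.0769% and 0.0541% of the 35116 windows). The stretches around these elements are shown because 11 of the members hold one. The members were listed as genes of the response in which ATF6 acts, so their choice cannot be taken as independent of these elements. The difference in share was not tested. Each is printed along the strand of its gene with up to 20 bases on either side, and capitals mark the exact match (ERSE or ERSE-II, read on either strand).
HSPA5: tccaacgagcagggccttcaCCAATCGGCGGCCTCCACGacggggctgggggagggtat
HSP90B1 (distal): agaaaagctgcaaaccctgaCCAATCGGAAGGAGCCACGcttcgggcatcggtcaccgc
HSP90B1 (proximal): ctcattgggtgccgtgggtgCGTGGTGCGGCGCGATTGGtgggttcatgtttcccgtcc
CALR: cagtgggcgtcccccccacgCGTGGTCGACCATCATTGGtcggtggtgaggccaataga
CANX: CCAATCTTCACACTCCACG
XBP1: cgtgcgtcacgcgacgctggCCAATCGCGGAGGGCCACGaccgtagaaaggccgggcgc
HYOU1 (distal): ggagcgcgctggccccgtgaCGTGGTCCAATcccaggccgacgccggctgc
HYOU1 (proximal): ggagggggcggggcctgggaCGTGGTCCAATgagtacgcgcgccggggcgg
HERPUD1: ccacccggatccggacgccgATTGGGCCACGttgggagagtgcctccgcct
PDIA6: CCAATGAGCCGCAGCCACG
SDF2L1: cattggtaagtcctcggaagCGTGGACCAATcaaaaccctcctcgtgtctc
CRELD2: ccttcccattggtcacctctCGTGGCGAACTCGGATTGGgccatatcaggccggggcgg
ERO1B: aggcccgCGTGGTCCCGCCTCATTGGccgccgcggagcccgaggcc
The HSPA5 stretch lies at chr9:125241371-125241429 (minus strand) and its element begins 66 bases before the start of the gene, while the XBP1 stretch lies at chr22:28800583-28800641 (minus strand) with its element 52 bases before the start. HSP90B1 has an element in each orientation, at chr12:103930196-103930254 (plus strand) and chr12:103930301-103930359 (plus strand). CALR has one at chr19:12938364-12938422 (plus strand) and CANX at chr5:179698778-179698796 (plus strand). HYOU1, SDF2L1 and HERPUD1 hold the shorter element, HYOU1 in 2 copies at chr11:119057360-119057410 (minus strand) and chr11:119057254-119057304 (minus strand), SDF2L1 at chr22:21642094-21642144 (plus strand) and HERPUD1 at chr16:56932005-56932055 (plus strand). The remaining stretches lie at chr2:10812853-10812871 (minus strand) for PDIA6, chr22:49918534-49918592 (plus strand) for CRELD2 and chr1:236282163-236282208 (minus strand) for ERO1B. The elements of CANX and PDIA6 lie inside the span of their genes (179678656 to 179731641 and 10783391 to 10837712), before an inner start. Both are printed without flanking bases. A match describes the letters and does not show that a factor binds.

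Total counts ran from 35417366 to 48298264 per library. The first principal component of log2 CPM (counts relative to library size, with trimmed-mean scaling between libraries) placed the shControl libraries at -55.8, -10.2 and -52.0 and the shZNF469 libraries between 36.7 and 42.2. The second component gave the 3 shControl libraries values of 61.6, -2.99 and -62.2 and the shZNF469 libraries values between -3.48 and 8.57, so that the controls were more spread than the knockdown libraries on both. The first component held 30.5% of the variance and the second 22.4%. Within a group, the log2 CPM of library pairs correlated at 0.949 to 0.967. The source of the spread within groups was not tested. ZNF469 had 39.7, 46.2 and 39.9 CPM with shControl against 21.4, 18.3 and 18.5 CPM with shZNF469, without overlap (log2 fold change -1.12 with a standard error of 0.092, adjusted p = 0.000873). All 10 fibroblast markers examined exceeded 1 TPM (a length-scaled abundance) in every library, with summed levels of 31020.2 to 33423 TPM in the controls and 24059 to 25487 TPM in the knockdown, where COL1A1, COL1A2 and COL3A1 were lower and VIM higher. Of the other marker lists, summed TPM in controls and knockdown was 47.3 to 52.7 and 42.0 to 48.6 for keratinocytes (3 of 8 markers analysed here, KRT10 lower and DSP higher by the test, both above 1 TPM), 38.0 to 42.4 and 51.3 to 62.6 for melanocytes (2 of 7, MITF and PMEL, of which PMEL was higher), 173 to 195 and 204 to 245 for immune cells (3 of 8, CD68 above 1 TPM), 114 to 117 and 90.6 to 102 for smooth muscle and pericytes (5 of 6, all above 1 TPM), and 0.936 to 2.20 and 0.924 to 2.03 for endothelium (4 of 7, none above 1 TPM). The part of these marker levels in the results that follow was not tested.

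In the knockdown, the main ER chaperones and lectins and the stress factor gene XBP1 were lower, by modest amounts, while the stress sensors and most degradation genes did not pass the test. Of the 34 members tested, 10 were lower and 1 was higher at an adjusted p under 0.05 (edgeR quasi-likelihood test, adjusted over all 16353 genes tested). Of all genes tested, 5.34% were lower and 4.56% higher, and of the 9493 with a mean of 10 CPM or more, 7.02% and 6.47%, a level that 32 of the tested members and all 11 called ones reached. The members and the lists below were chosen with earlier results of these data known. A share above that of all genes is therefore a description and not a test. The median log2 fold change (shZNF469 minus shControl) of the 34 members was -0.11, beside 0.0039 for all genes tested, and 28 of the 34 were below 0, as were 8063 of all 16353 genes and 4777 of the 9493 at 10 CPM or more. The lower members were HSPA5, HSP90B1, DNAJB11, HYOU1, CALR, CANX, PDIA3, XBP1, HERPUD1 and SELENOS, and EDEM2 was the higher one. The changes were small, from 1.15-fold to 1.52-fold lower and 1.31-fold higher. On the CPM scale the libraries of the groups did not overlap for 18 of the 34 members, 16 lower and 2 higher, where 15.7% and 15.6% of all genes tested lay apart in those directions, and 18.4% and 18.5% of those at 10 CPM or more. In RNA from whole cultures, fewer cells that express a gene and less RNA per cell cannot be told apart. The count of lower members was 4, 6 and 4 without shControl replicate 1, 2 and 3, and 3, 9 and 9 without shZNF469 replicate 1, 2 and 3. The number of all genes called lower varied between these fits too, over the range given near the end. Whether the members varied more than other genes was not tested. HSPA5, HSP90B1 and XBP1 were called in each of these 6 fits. DESeq2 called 14 members lower and 2 higher, among them all 11 called by edgeR, where it called 11.3% of its 14552 genes lower and as many higher. At an unadjusted p under 0.05 by edgeR, 14 members were lower and 2 higher, beside 12.3% and 12.1% of all genes tested and 15.8% and 16.4% of those at 10 CPM or more.

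**Figure D1:**
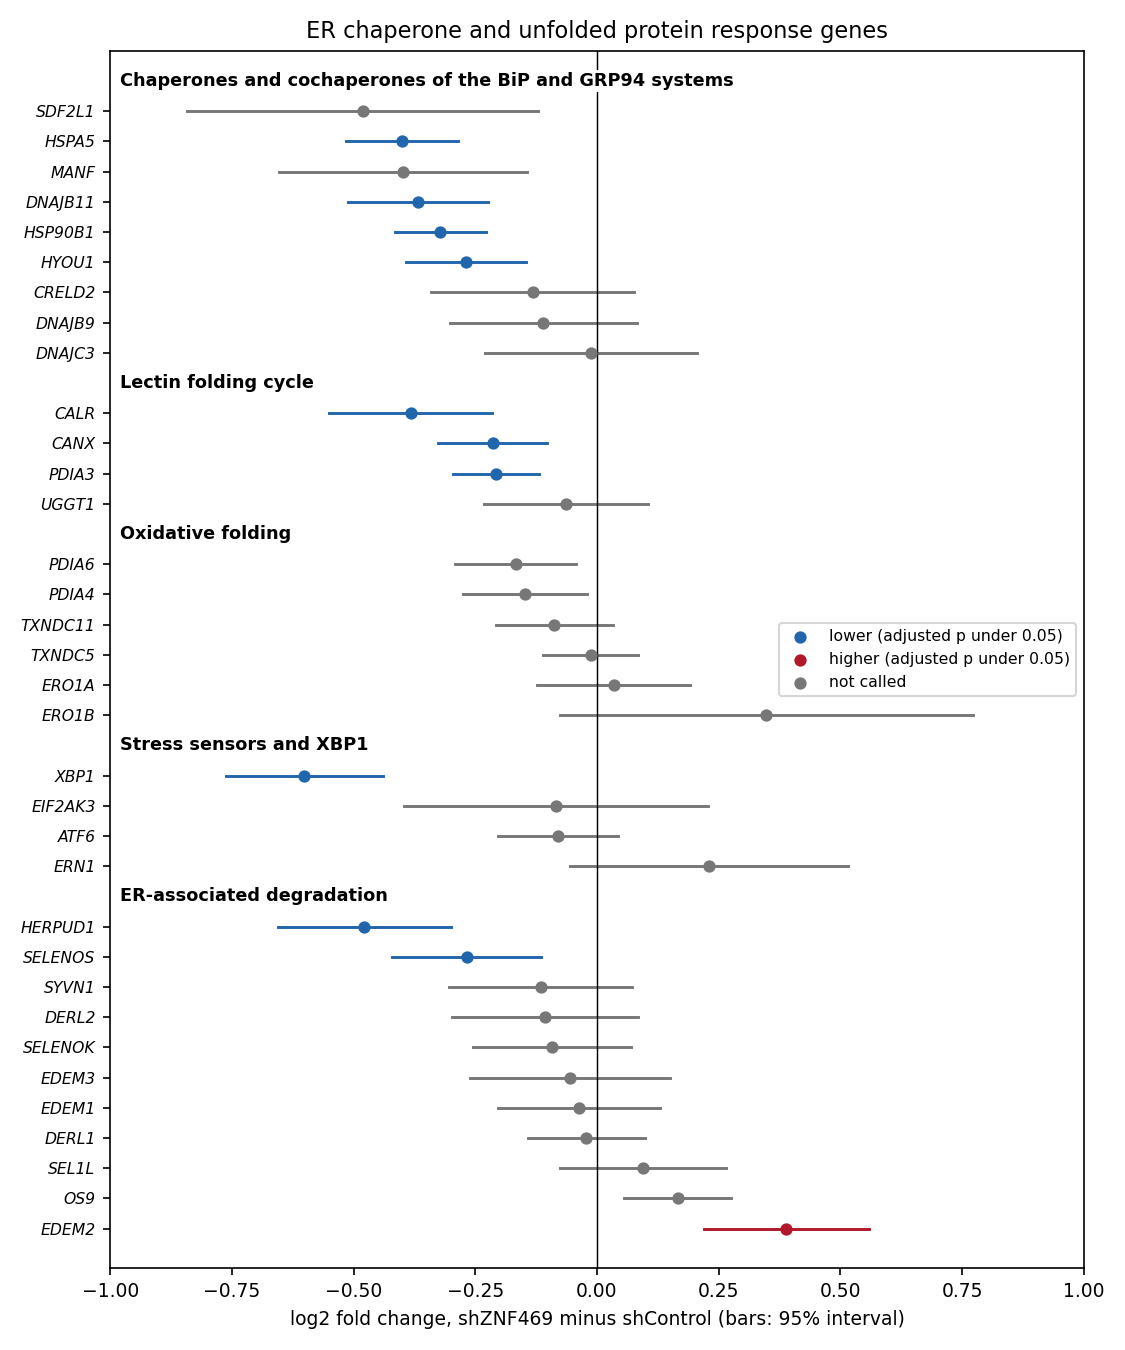
Log2 fold change of the 34 tested members (shZNF469 minus shControl, points) with the 95% interval of the edgeR fit (bars), ordered by role, and coloured by the call at an adjusted p under 0.05. The calls lie in the chaperone, lectin and degradation groups and, for XBP1 alone, in the group of sensors and XBP1, with 10 genes left of 0 and EDEM2 right of it.

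BiP and its partners had the lowest median of the 5 groups of members. Of these 9 genes, 4 were lower and 0 higher by edgeR (6 lower and 0 higher at an unadjusted p under 0.05, and the same numbers by DESeq2), their median log2 fold change was -0.32, and all 9 values lay below 0. HSPA5 (ENSG00000044574, chromosome 9, 125234853 to 125241343 on GRCh38.p14), the general Hsp70 chaperone of the ER and the classic readout of its stress, had 641, 619 and 661 CPM with shControl against 496, 462 and 496 CPM with shZNF469. Each knockdown library was below each control, and the mean was 1.32-fold lower (log2 fold change -0.40 with a standard error of 0.049, adjusted p = 0.00381). Its call held in each alternative (adjusted p up to 0.0310). HSP90B1 (ENSG00000166598, chromosome 12, 103930410 to 103947926), which encodes the Hsp90 of the ER (GRP94), had 864, 833 and 859 CPM with shControl against 665, 697 and 681 CPM with shZNF469. These too were apart, with a mean 1.25-fold lower (log2 fold change -0.32 with a standard error of 0.040, adjusted p = 0.00393), although limma on the TPM values did not call it (adjusted p = 0.0939).

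DNAJB11 (ENSG00000090520, chromosome 3, 186570720 to 186585793), a J-domain cochaperone that brings unfolded clients to BiP, had 52.0, 51.2 and 54.8 CPM with shControl against 41.0, 38.3 and 43.0 CPM with shZNF469. It was 1.29-fold lower without overlap (log2 fold change -0.37 with a standard error of 0.061, adjusted p = 0.0120), and the call was lost when shControl replicate 1 or 3 or shZNF469 replicate 1 was left out (adjusted p up to 0.0586). HYOU1 (ENSG00000149428, chromosome 11, 119044188 to 119057205), a large Hsp70-like protein that exchanges the nucleotide on BiP, had 96.6, 102 and 97.6 CPM with shControl against 83.2, 79.6 and 83.4 CPM with shZNF469. It was 1.21-fold lower, again without overlap (log2 fold change -0.27 with a standard error of 0.052, adjusted p = 0.0216), and the call was lost, among other settings, when shControl replicate 1, 2 or 3 or shZNF469 replicate 1 was left out and in limma on the TPM values (adjusted p up to 0.101).

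SDF2L1 and MANF, a partner of DNAJB11 and a secreted stress protein that binds BiP, had fold changes as large but did not pass. SDF2L1 was at 6.77 ± 0.187 CPM with shControl against 4.85 ± 0.944 CPM with shZNF469 (SD, n = 3; log2 fold change -0.48, adjusted p = 0.101), and MANF at 27.1 ± 3.07 CPM with shControl against 20.6 ± 2.21 CPM with shZNF469 (log2 fold change -0.40, adjusted p = 0.0632). In both the libraries of the groups were apart, and DESeq2 called both (adjusted p = 0.0195 and 0.00252). DESeq2 was the only alternative to call SDF2L1, while 7 alternatives called MANF, the same number as for CANX and SELENOS. The remaining 3 had overlapping libraries: CRELD2 (log2 fold change -0.13, adjusted p = 0.442), the J-domain protein gene DNAJB9 (-0.11, adjusted p = 0.491) and DNAJC3, whose product also inhibits PERK (-0.012, adjusted p = 0.959). For DNAJC3 the 95% interval of the log2 fold change was -0.23 to 0.21.

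**Figure D2:**
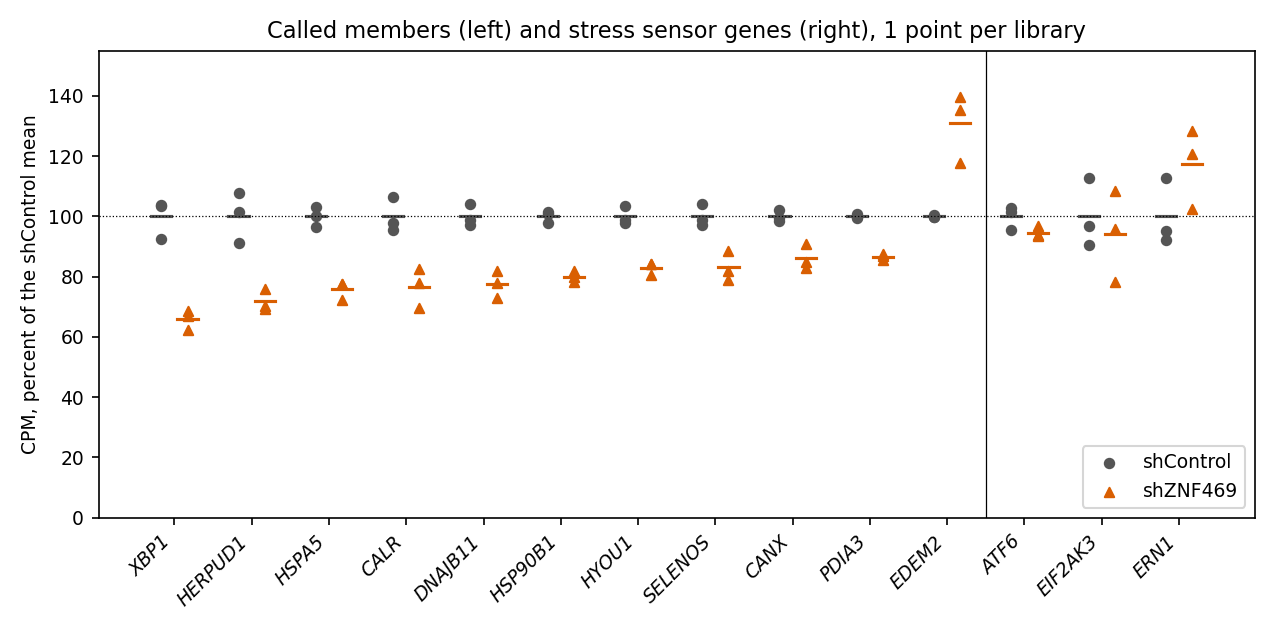
CPM of each library as a percent of the shControl mean for the 11 called members and, right of the line, the 3 sensor genes (circles shControl, triangles shZNF469, short bars group means, 3 libraries per group). The knockdown triangles of the 10 lower members all lie below their controls, those of EDEM2 all lie above, and those of the sensors overlap the controls.

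The lectin cycle, which holds glycoproteins in the ER until they are folded, was lower in 3 of its 4 members and higher in 0 (edgeR; 3 lower and 0 higher both at an unadjusted p under 0.05 and by DESeq2). CALR (ENSG00000179218, chromosome 19, 12938609 to 12944489), which encodes the soluble lectin calreticulin, had 1114, 1088 and 1214 CPM with shControl against 887, 794 and 939.7 CPM with shZNF469. The groups did not overlap, and the mean was 1.30-fold lower (log2 fold change -0.38 with a standard error of 0.072, adjusted p = 0.0189). The call was lost when shControl replicate 1 or 3 or shZNF469 replicate 1 was left out (adjusted p up to 0.0748). CANX (ENSG00000127022, chromosome 5, 179678656 to 179731641), encoding its membrane-bound counterpart calnexin, had 719, 691 and 698 CPM with shControl against 595, 639 and 583 CPM with shZNF469. It was 1.16-fold lower (log2 fold change -0.21 with a standard error of 0.048, adjusted p = 0.0347), and the call was lost, among other settings, when shControl replicate 1, 2 or 3 or shZNF469 replicate 1 or 3 was left out, with scaling by library totals alone and in limma on the TPM values (adjusted p up to 0.189). PDIA3 (ENSG00000167004, chromosome 15, 43746438 to 43773278), the disulfide isomerase that works with both lectins, had 598, 596 and 605 CPM with shControl against 512, 522 and 524 CPM with shZNF469. It was 1.15-fold lower (log2 fold change -0.21 with a standard error of 0.038, adjusted p = 0.0176), and the call was lost when shControl replicate 1, 2 or 3 or shZNF469 replicate 1 was left out and in limma on the TPM values (adjusted p up to 0.421). On the authors' TPM the groups of these last 2 overlapped, with CANX at 349.5, 346 and 316 TPM with shControl against 282, 322 and 257 TPM with shZNF469 and PDIA3 at 549, 464 and 423 TPM with shControl against 455, 441 and 368 TPM with shZNF469. UGGT1, whose product marks unfolded glycoproteins for another round, was at 90.9 ± 4.02 CPM with shControl against 87.0 ± 6.80 CPM with shZNF469 (adjusted p = 0.674).

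Oxidative folding genes, which make and rearrange disulfide bonds, did not pass. Of 6 members, 0 were higher and 0 lower by edgeR, while 0 were higher and 2 lower at an unadjusted p under 0.05 and by DESeq2. Those 2 were the isomerase genes PDIA6, at 406 ± 12.5 CPM with shControl against 362 ± 17.7 CPM with shZNF469 (log2 fold change -0.17, adjusted p = 0.0974), and PDIA4, at 174 ± 8.04 CPM with shControl against 157 ± 4.04 CPM with shZNF469 (-0.15, adjusted p = 0.148). In both each knockdown library was below each control. TXNDC5, a thioredoxin-domain isomerase gene, was at 404 ± 7.83 CPM with shControl against 401 ± 5.57 CPM with shZNF469, with an interval of -0.11 to 0.085 for the log2 fold change. ERO1A, the oxidase that recharges the isomerases, was at 111 ± 5.53 CPM with shControl against 114 ± 7.21 CPM with shZNF469 (interval -0.12 to 0.19). Its paralog ERO1B was much scarcer and more variable, with 5.50, 5.90 and 5.13 CPM with shControl against 5.31, 8.66 and 7.09 CPM with shZNF469 (adjusted p = 0.299). TXNDC11 was at 38.6 ± 0.937 CPM with shControl against 36.3 ± 0.866 CPM with shZNF469 (adjusted p = 0.363).

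Among the sensors and XBP1, 1 of 4 was lower and 0 were higher (edgeR; the same at an unadjusted p under 0.05 and by DESeq2). XBP1 (ENSG00000100219, chromosome 22, 28794560 to 28800569), the transcription factor gene downstream of IRE1, had the largest change of all members. It had 86.6, 77.0 and 86.3 CPM with shControl against 55.7, 51.9 and 57.2 CPM with shZNF469, and the lowest control lay well above the highest knockdown library. The mean was 1.52-fold lower (log2 fold change -0.60 with a standard error of 0.069, adjusted p = 0.00302), a call that held in each alternative (adjusted p up to 0.0237). Counts per gene do not separate its spliced from its unspliced transcript, so the active form was not measured. ATF6 (ENSG00000118217, chromosome 1, 161766320 to 161964070), a membrane-bound transcription factor released by cleavage, had 62.9, 63.8 and 59.2 CPM with shControl against 60.0, 58.1 and 57.8 CPM with shZNF469 (log2 fold change -0.080 with a standard error of 0.053, adjusted p = 0.432, interval -0.20 to 0.044). EIF2AK3 (ENSG00000172071, chromosome 2, 88556741 to 88628145), the kinase PERK that slows translation, had 25.9, 22.3 and 20.7 CPM with shControl against 22.0, 24.9 and 17.9 CPM with shZNF469 (log2 fold change -0.085 with a standard error of 0.13, adjusted p = 0.773, interval -0.40 to 0.23). ERN1 (ENSG00000178607, chromosome 17, 64039142 to 64130144), the kinase and nuclease IRE1, had 9.71, 10.02 and 11.9 CPM with shControl against 12.7, 13.5 and 10.8 CPM with shZNF469 (log2 fold change 0.23 with a standard error of 0.12, adjusted p = 0.308, interval -0.054 to 0.52). The libraries of the groups overlapped for these 3 sensor genes, and intervals as wide as those of EIF2AK3 and ERN1 do not show that the level was the same.

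Calls among the ER-associated degradation genes went in both directions. Of 11 tested, 2 were lower and 1 higher by edgeR (2 and 2 at an unadjusted p under 0.05 and by DESeq2), with a median log2 fold change of -0.055. HERPUD1 (ENSG00000051108, chromosome 16, 56932142 to 56944864), a stress-induced scaffold of the degradation complex, had 70.1, 78.0 and 82.9 CPM with shControl against 54.2, 53.3 and 58.6 CPM with shZNF469. It was 1.39-fold lower without overlap (log2 fold change -0.48 with a standard error of 0.076, adjusted p = 0.0104), the second largest fall among called members, and the call was lost when shZNF469 replicate 1 was left out (adjusted p up to 0.0553). SELENOS (ENSG00000131871, chromosome 15, 101270809 to 101277485), a selenoprotein of the same complex, had 31.7, 34.0 and 32.2 CPM with shControl against 26.7, 25.7 and 28.9 CPM with shZNF469. It was 1.20-fold lower (log2 fold change -0.27 with a standard error of 0.065, adjusted p = 0.0450), with the call lost, among other settings, when shControl replicate 1, 2 or 3 or shZNF469 replicate 1 or 2 was left out, with no filter on low counts and in limma on the TPM values (adjusted p up to 0.168). EDEM2 (ENSG00000088298, chromosome 20, 35115364 to 35147336), a mannosidase that trims glycans of proteins bound for degradation, went the other way, with 34.6, 34.8 and 34.6 CPM with shControl against 48.4, 40.9 and 47.0 CPM with shZNF469. Its controls lay within a narrow span, each knockdown library was above them, and the mean was 1.31-fold higher (log2 fold change 0.39 with a standard error of 0.072, adjusted p = 0.0186). The call was lost when shControl replicate 1, 2 or 3 or shZNF469 replicate 1 or 3 was left out (adjusted p up to 0.0770).

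OS9, a lectin that recognises the trimmed glycans, was higher in each knockdown library too, with 400.0, 384 and 403 CPM with shControl against 449, 427 and 456 CPM with shZNF469, but did not pass (log2 fold change 0.17, adjusted p = 0.0718; DESeq2 adjusted p = 0.00137). The related mannosidase genes EDEM1 and EDEM3 were at 76.3 ± 2.86 CPM with shControl against 74.3 ± 5.91 CPM with shZNF469 and at 41.0 ± 1.80 CPM with shControl against 39.4 ± 4.51 CPM with shZNF469 (adjusted p = 0.817 and 0.774). For the ubiquitin ligase gene SYVN1 and its partner SEL1L the log2 fold changes were -0.12 and 0.095 (adjusted p = 0.455 and 0.512). For the channel components DERL1 and DERL2 they were -0.022 and -0.11 (adjusted p = 0.857 and 0.500), and for SELENOK -0.093 (adjusted p = 0.495). Of the 23 tested members without a call, 17 had a 95% interval that lay within 1.25-fold in either direction. This does not show that they were unchanged. The bound is wider than some called changes, such as that of PDIA3 (1.15-fold lower), and the intervals of PDIA4, PDIA6 and OS9, among the 17, left out 0.

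On the authors' TPM, the scale on which genes can be compared, the members spanned a wide range. In the controls CALR was highest at 1417 ± 3.51 TPM (SD, n = 3), above HSP90B1 at 615 ± 45.4 TPM, and their libraries did not overlap. PDIA3 at 478 ± 64.3 TPM and PDIA6 at 416 ± 13.3 TPM followed and overlapped each other. CANX, HSPA5, TXNDC5 and OS9 lay together at 337 ± 18.5, 328 ± 8.87, 322 ± 11.1 and 307 ± 13.5 TPM. PDIA4 and XBP1 were the only others at a mean of 100 TPM or more, at 145 ± 2.09 and 105 ± 7.56 TPM. The sensors were scarce, with ATF6 at 20.2 ± 1.44, EIF2AK3 at 12.0 ± 1.64 and ERN1 at 3.23 ± 0.266 TPM.

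The members as a whole took a smaller share of the RNA in each knockdown library. The 35 members held 0.661, 0.646 and 0.657% of all counts with shControl and 0.566, 0.579 and 0.567% with shZNF469. Summed TPM went from 5289 ± 203 to 4479 ± 189.7 (SD, n = 3), without overlap. The 10 lower members made up most of this, at 3534 ± 147 and 2789 ± 107 TPM, which describes the calls and does not test them. The other 25 summed to 1755 ± 57.0 and 1691 ± 89.0 TPM.

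**Figure D3:**
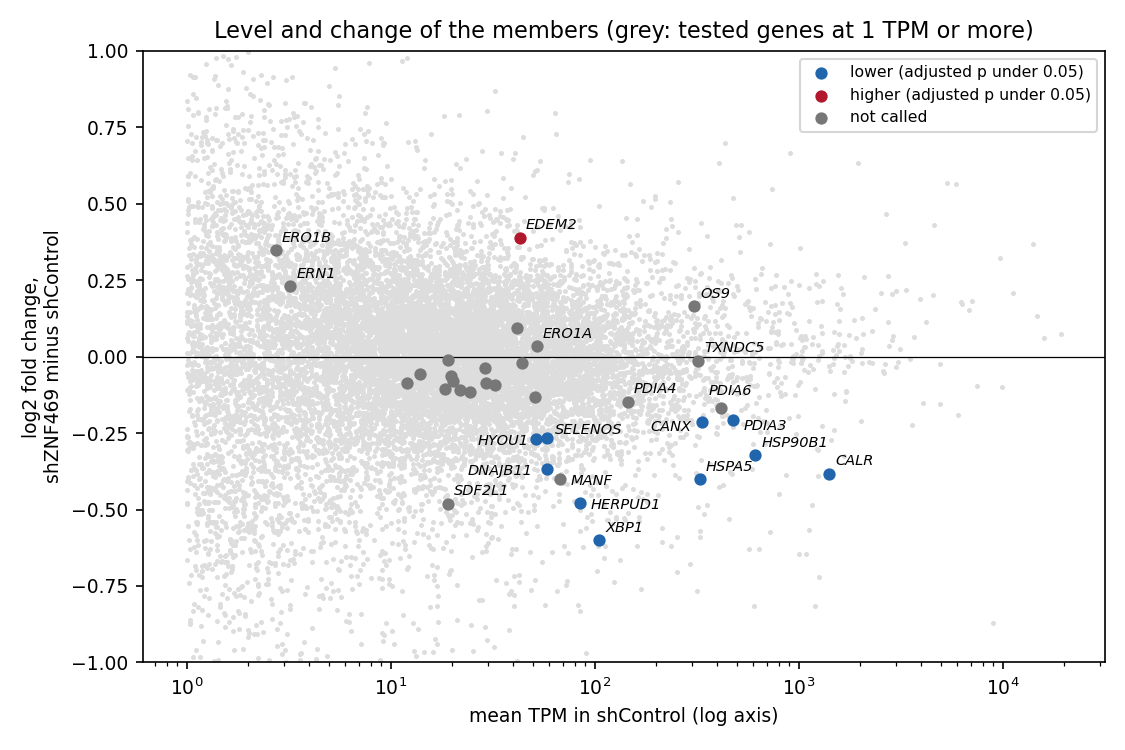
Mean TPM of each tested member in shControl (log axis) against its log2 fold change (shZNF469 minus shControl), with tested genes at 1 TPM or more in grey where they fall within the axis. CALR, HSP90B1, PDIA3, CANX and HSPA5, among the most abundant members, lie below 0, TXNDC5 at a like level lies at -0.013, and EDEM2 is the called member above 0.

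Whether related members changed unequally was read from the log2 ratio of their CPM within each library, for 8 pairs. With 3 libraries against 3 the two-sided exact permutation test cannot give a p below 0.1, and adjusted over the 8 pairs no p was below 0.400. XBP1 to ATF6 was 0.46, 0.27 and 0.55 with shControl against -0.11, -0.16 and -0.017 with shZNF469, apart in each library (exact permutation p = 0.1). HERPUD1 to SYVN1 was 1.23, 1.24 and 1.30 with shControl against 0.74, 0.94 and 1.02 with shZNF469, also apart (exact permutation p = 0.1). For the other 6 pairs the groups overlapped. The change of the log2 ratio was -0.079 for HSPA5 to HSP90B1 and -0.17 for CALR to CANX, 0.061 for PDIA4 to PDIA3 and -0.29 for ERO1A to ERO1B. It was 0.32 for ERN1 to EIF2AK3 and 0.022 for EDEM1 to EDEM3, with exact permutation p of 0.200 and 0.700 for these last 2.

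The calls were set beside the promoter elements. Of all genes tested, 5.34% were lower and 4.56% higher by edgeR, and of those at a mean of 10 CPM or more, 7.02% and 6.47%. Of the 11 members with an exact ERSE or ERSE-II, 7 were lower and 0 higher by edgeR: HSPA5, HSP90B1, CALR, CANX and XBP1 with the long element and HYOU1 and HERPUD1 with the short one. Their median log2 fold change was -0.32, within a range from -0.60 (XBP1) to 0.35 (ERO1B). Of the 21 members with a window that held neither, 2 were lower (DNAJB11 and SELENOS) and 1 was higher (EDEM2), with a median of -0.080. PDIA6, CRELD2, ERO1B and SDF2L1 carried an element and were not called. For CANX and PDIA6 the element lies before a start inside the gene. The groups with and without an element were not matched for abundance, and the most abundant members, CALR and HSP90B1, carried one. Outside the members, 19 tested genes held an exact element, and of these 3 were lower and 0 higher, with a median of -0.045. The lower ones were SERP1, which stabilises membrane proteins in the ER (log2 fold change -0.39, adjusted p = 0.0103), RUVBL2, an ATPase of chromatin complexes (-0.41, adjusted p = 0.0264), and SHCBP1, a gene of dividing cells (-1.53, adjusted p = 0.000461). The call of RUVBL2 was lost when shControl replicate 1, 2 or 3 or shZNF469 replicate 1 or 2 was left out (adjusted p up to 0.103). That of SHCBP1 held in each alternative. FICD, which modifies BiP, held an element and was at log2 fold change -0.17 (adjusted p = 0.326). Not all 19 need be separate elements, because some of these genes are neighbours. SERP1 ends at base 150546496 of chromosome 3, and EIF2A (log2 fold change 0.19, not called) starts at 150546787. GYS1 (-0.23, not called) ends at 48993309 of chromosome 19, and RUVBL2 starts at 48993448. ALG12 (0.014, not called) ends at 49918438 of chromosome 22, and the member CRELD2 starts at 49918634. Whether such neighbours share an element was not tested. RUVBL2, SHCBP1, FICD, EIF2A, GYS1 and ALG12 are named after their values were seen, and the counts by element carry no test. A core of the ATF4 element, TGATGNAA, was in the window of 1 member, HERPUD1, and in that of 4.46% of all genes, and TGACGTGG, a core of the element bound by XBP1 and ATF6, in HYOU1, TXNDC5 and TXNDC11 and in 0.927% of all genes.

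**Figure D4:**
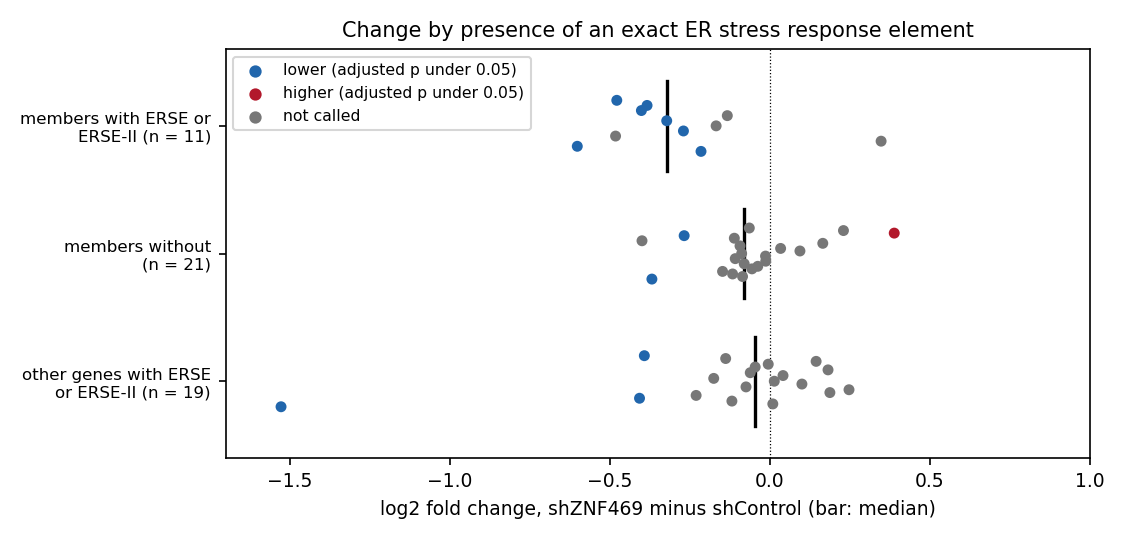
Log2 fold change (shZNF469 minus shControl) of members with an exact ERSE or ERSE-II in the promoter window, of members with neither, and of other tested genes with an element, 1 point per gene and a bar at the median. The medians are -0.32, -0.080 and -0.045.

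In further lists of genes of the same pathways, few passed the test. Of 17 further chaperone and glycan trimming genes, 2 were lower and 0 higher by edgeR (3 and 1 at an unadjusted p under 0.05, 2 and 1 by DESeq2), with a median log2 fold change of -0.084. They were SERP1, at 125 ± 5.59 CPM with shControl against 95.6 ± 4.98 CPM with shZNF469 (1.31-fold lower), and the calcium-binding protein gene RCN1, at 404 ± 12.8 CPM with shControl against 345 ± 10.1 CPM with shZNF469 (1.17-fold lower, adjusted p = 0.0264). The call of SERP1 was lost when shControl replicate 1 or 3 was left out (adjusted p up to 0.0636), and that of RCN1 when shControl replicate 1, 2 or 3 or shZNF469 replicate 1 was left out and in limma on the TPM values (adjusted p up to 0.130). The mannosidase gene MAN1B1 was at 95.6 ± 5.88 CPM with shControl against 114 ± 6.74 CPM with shZNF469 (adjusted p = 0.0654). Of 14 further oxidoreductases, 0 were higher and 0 lower (0 and 2 at an unadjusted p under 0.05 and by DESeq2), with a median of 0.007. The 3 with the lowest p were DNAJC10, GPX8 and TMX1, at log2 fold changes of -0.26, -0.14 and -0.20 (adjusted p = 0.0747, 0.181 and 0.230). Of 20 further degradation genes, 1 was lower and 1 higher (6 and 1 at an unadjusted p under 0.05, 5 and 1 by DESeq2), with a median of -0.12. RNF185, a ubiquitin ligase gene, was 1.18-fold lower (adjusted p = 0.0286), and ERLIN2, of a complex that degrades the inositol trisphosphate receptor, was 1.20-fold higher (adjusted p = 0.0273). The call of RNF185 was lost when shControl replicate 1, 2 or 3 or shZNF469 replicate 1 or 3 was left out and in limma on the TPM values (adjusted p up to 0.135), and that of ERLIN2 when shControl replicate 1, 2 or 3 or shZNF469 replicate 1 or 3 was left out and in limma on the TPM values (adjusted p up to 0.212). VCP, the ATPase that extracts proteins from the membrane, was at 352 ± 5.87 CPM with shControl against 313 ± 11.9 CPM with shZNF469 (adjusted p = 0.0655).

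Of 10 further stress transducers tested, 1 was lower and 0 higher (3 and 0 at an unadjusted p under 0.05 and by DESeq2). It was MBTPS1 (ENSG00000140943, chromosome 16, 84053763 to 84116942), which encodes the first of the proteases that cleave ATF6 in the Golgi, with 188, 189 and 183 CPM with shControl against 157, 152 and 154 CPM with shZNF469. The groups were apart and the mean was 1.21-fold lower (log2 fold change -0.27 with a standard error of 0.046, adjusted p = 0.0125), with the call lost when shControl replicate 1 or 2 or shZNF469 replicate 1 was left out and in limma on the TPM values (adjusted p up to 0.0818). CREB3L1, an ATF6-like factor known for driving collagen genes, was at 290.4 ± 0.747 CPM with shControl against 259.7 ± 17.3 CPM with shZNF469 (adjusted p = 0.142), and the apoptosis gene BAK1 at 14.3 ± 0.893 CPM with shControl against 11.1 ± 1.77 CPM with shZNF469 (adjusted p = 0.126).

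The integrated stress response, the translational arm shared by PERK and other kinases that acts through ATF4, held more calls. Of 22 genes, 9 were lower and 1 higher by edgeR (12 and 1 at an unadjusted p under 0.05, 12 and 2 by DESeq2), and the median log2 fold change of the 21 genes other than ADM2 was -0.31. ADM2 was counted 148, 268 and 175 times with shControl and is listed at 0 in the 3 knockdown libraries. DDIT3, which encodes the stress factor CHOP, was 1.76-fold lower (adjusted p = 0.00300), ATF4 itself 1.30-fold lower (adjusted p = 0.0162), the asparagine synthetase gene ASNS 2.08-fold lower (adjusted p = 0.000587) and DDIT4, an inhibitor of mTOR signalling, 1.96-fold lower (adjusted p = 0.000560). STC2, which encodes a secreted glycoprotein, was 1.55-fold higher (adjusted p = 0.000487). The call of ATF4 was lost when shControl replicate 1, 2 or 3 or shZNF469 replicate 1 was left out (adjusted p up to 0.0748). Whether this list and the members differ was not tested.

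**Figure D5:**
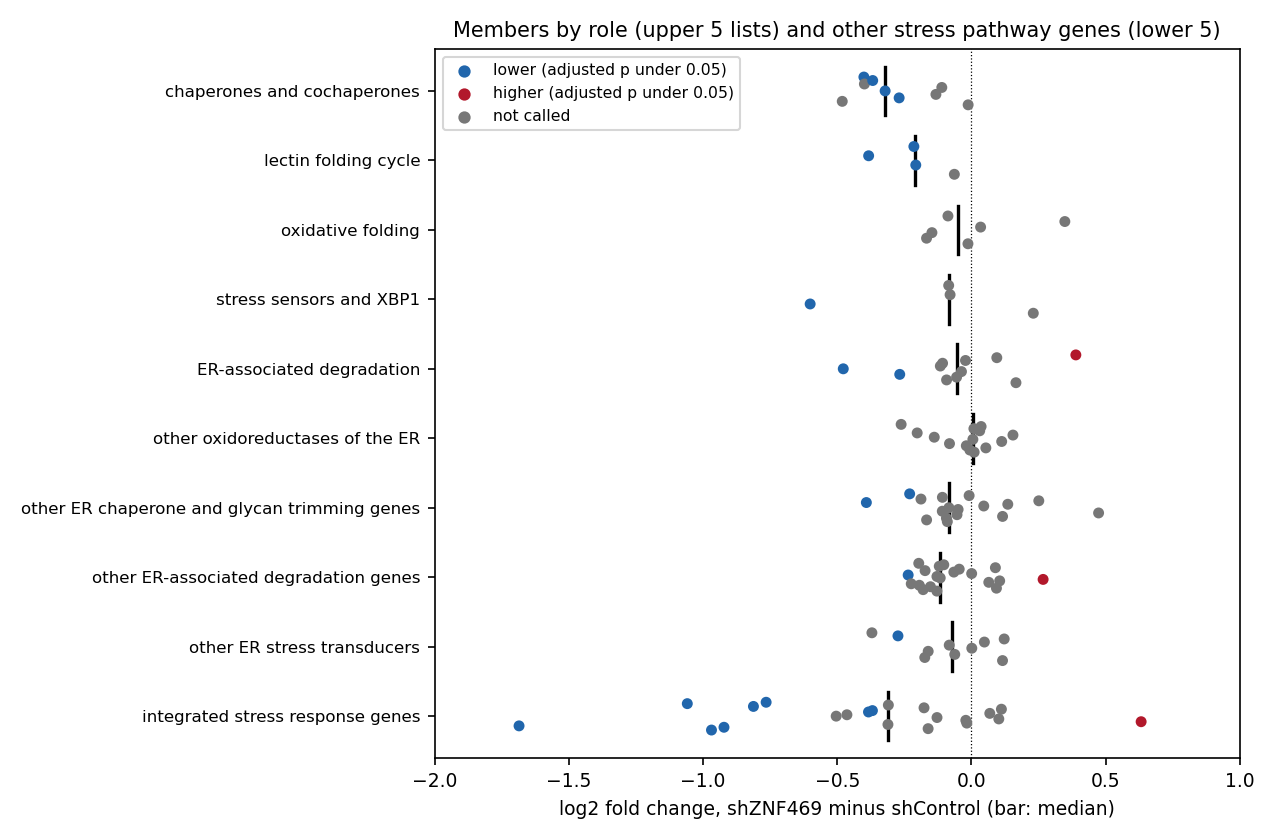
Log2 fold change (shZNF469 minus shControl) of each tested gene by list, with the members by role above and the other stress pathway lists below, 1 point per gene and a bar at the median (ADM2, at 0 in the knockdown, is left out). The chaperone and cochaperone median lies at -0.32 and that of the integrated stress response at -0.31, while the other lists have medians between -0.21 and 0.007.

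Some members overlap other genes or have near-identical copies, and how far reads are shared with these was not tested. The strand setting of the counting is not given in the sources used here, and by GENCODE release 29 exons of 18 members overlap those of a gene on the opposite strand, among them 6 called members: HSP90B1, CALR, CANX, PDIA3, DNAJB11 and HYOU1. For HSP90B1, PDIA3 and DNAJB11 such a partner is itself listed in the table. PDIA3 also has a processed copy, PDIA3P1, with a mean of 14.4 CPM with shControl against 14.2 CPM with shZNF469, beside 599.6 and 519 CPM of PDIA3. HSP90B2P, a copy of HSP90B1, had at most 21 counts in any library. Both copies were looked up after the values were seen. On the same strand, TXNDC5 shares exons with the readthrough gene BLOC1S5-TXNDC5. Exons of HSP90B1 (with MIR3652), DNAJB11 (with AC068631.2) and SYVN1 (with FAU and MIR6751) also overlap a gene on the same strand. HSPA5, XBP1, HERPUD1, SELENOS and EDEM2 had no exon overlap with an opposite-strand gene.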

How the data were processed

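Per the file headers, the authors deposited 1 table with a count and a TPM value, an abundance scaled by gene length and depth, per gene and library. The submitters' processing notes name HISAT2, StringTie and GRCh38.p14, with no versions. Strand setting, annotation release and treatment of low values were each not given in the sources used here. The deposited counts were filtered (edgeR filterByExpr, minimum count 10), scaled between libraries with edgeR's TMM factors and tested with edgeR 4.0.16 in R 4.3.3 (quasi-likelihood F-test, shZNF469 against shControl, no covariate), with Benjamini-Hochberg adjustment over 16353 genes and a threshold of 0.05. The scripts were tested on simulated data. DESeq2 1.42.0 and limma 3.58.1, the latter on voom weights and on log2(TPM + 1) of the authors' deposited TPM, were alternatives, as were other scalings and filters, a replicate block and leaving out each library. Ratios of members were compared with an exact permutation test over libraries. Members at an adjusted p under 0.05 and the sensors are given in full, other members by counts and levels, and other genes only as ZNF469, the 3 lowest p of each further list, and DDIT3, ATF4 and ASNS, unless stated. The members and lists were chosen with earlier results of these data known. Of symbols listed more than once, the row with the highest mean was used.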

Additional observations from a re-analysis of the deposited data

How the results depend on the processing

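Precision was limited by 3 libraries per group. ERO1B, SDF2L1 and ERN1 were among the members with the fewest counts. EIF2AK3 had more counts than ERN1 but a standard error of 0.13 beside 0.12, and the part of low counts in the precision was not tested. The labels do not say whether replicate numbers pair the samples, and this was not tested. Deviations of same-numbered libraries correlated at -0.0226, 0.0759 and 0.0334. For shControl replicates 2 and 3 the same-numbered knockdown library gave the highest value, while shControl replicate 1 correlated best with shZNF469 replicate 3 (0.0606). With the replicate number as a block, 592 genes were higher and 736 lower. Among members the block left 1 higher and 8 lower (HYOU1, CANX and SELENOS lost their call, at adjusted p = 0.0504, 0.0505 and 0.0763, and MANF gained one), with 1 lower degradation gene, and it made 1 of the other chaperone genes higher. Of all genes, DESeq2 called 1638 higher and 1642 lower, and limma on log2(TPM + 1) 233 and 526. DESeq2 and scaling by library totals each called 2 members higher, both degradation genes. Limma on TPM called 6 members lower, 1 in the lectin cycle and 1 in degradation, and without a count filter 1 degradation gene was lower. DESeq2 called 2 oxidative folding members, 2 other oxidoreductases, 5 other degradation genes and 3 other transducers lower, 1 other chaperone gene higher and 2 integrated stress response genes higher. Limma-voom called 1 other oxidoreductase and 2 other degradation genes lower and 1 other chaperone gene higher, and scaling by library totals and the filter at a mean of 1 CPM each also called 1 other chaperone gene higher. Limma on TPM called 1 other chaperone gene lower, and of the other degradation genes and transducers 0 higher and 0 lower. With each library left out in turn, 204 to 769 genes were higher and 333 to 854 lower. Members ranged from 0 to 2 higher and 3 to 9 lower, with 2 to 4 chaperones and 0 to 3 lectin cycle genes lower, and with 0 to 2 degradation genes higher and 0 to 2 lower. In the further lists, 0 to 2 oxidoreductases, 0 to 3 chaperone genes, 0 to 2 degradation genes and 0 to 1 transducers were lower, and 0 to 1 chaperone and 0 to 1 degradation genes higher. The EDEM1 to EDEM3 log2 ratio ranged from -0.017 to 0.051 and turned negative without shZNF469 replicate 1. Over the same fits, log2 fold changes of uncalled members crossed 0 for DNAJC3 (-0.070 to 0.070, above 0 also without shZNF469 replicate 3 at 0.063), EIF2AK3 (-0.19 to 0.031), EDEM1 (-0.098 to 0.0080), ERO1A (-0.014 to 0.067) and TXNDC5 (-0.024 to 2.07e-05). Of 742 values recomputed for 53 named genes under 14 alternatives, 639 kept their direction and side of the threshold, 67 lost a call, 27 gained one and 9 turned in sign. Leaving out a library leaves fewer samples to estimate the spread, and the cause of the other shifts was not tested.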

Other observations

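The deposited TPM and the counts did not always place a library alike. For DNAJB11, picked out after its values were seen, shControl replicate 2 had 70.8 TPM beside 53.0 and 52.1 TPM in the other controls, while the same libraries had 51.2, 52.0 and 54.8 CPM. PDIA3 ranged from 423 to 549 TPM over the controls and from 596 to 605 CPM. CALR was the reverse, with 1417 ± 3.51 TPM and 1139 ± 66.3 CPM over the controls (SD, n = 3). The groups of DNAJB11 and CALR did not overlap on either scale, while those of PDIA3 overlapped on TPM, where its mean was 478 ± 64.3 TPM with shControl and 421 ± 46.7 TPM with shZNF469.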
